A study of Mus musculus with 4 samples.

Results

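The steroid hormone receptors described here are *Nr3c1* (glucocorticoid receptor), *Nr3c2* (mineralocorticoid receptor), *Esr1* and *Esr2* (estrogen receptors α and β) and *Pgr* (progesterone receptor). These 5 of the 32285 genes counted were chosen by name and followed through every cell type and neuronal cluster of the deposited annotation. The data are UMI counts of single nuclei from the part of the mouse hindbrain that holds the area postrema and the nucleus of the solitary tract, in 4 libraries, 2 for each of the groups control and AgRP-Gq;POMC-Gi. All mice were on a C57BL/6 background, 12 to 20 weeks old, of both sexes, and had received clozapine N-oxide (CNO) at 3 mg per kg 1 h before the tissue was taken. Both groups carried 1 copy each of a Cre-dependent hM3DGq and a Dre-dependent hM4DGi allele. Control mice (AgRP-IRES-Cre-/-;POMC-Dre-/-) had no recombinase, so that CNO had no designed target. AgRP-Gq;POMC-Gi mice (AgRP-IRES-Cre+/-;POMC-Dre+/-) expressed the activating receptor hM3DGq in AgRP neurons through Cre and the inhibiting receptor hM4DGi in POMC neurons through Dre, and the comparison asks what this double manipulation of hypothalamic neurons changed in hindbrain nuclei. Samples of a condition were pooled, the sources differ on the number of mice per group, and whether the libraries of a group came from separate mice is not stated. P-values therefore measure the spread between libraries, which may be technical in part. In the AgRP-Gq;POMC-Gi group this spread includes a difference in sex-linked genes, given below.

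These receptors are transcription factors of the NR3 nuclear receptor family that bind a steroid, dimerize and act on genes near their response elements. Glucocorticoids bind *Nr3c1* and, with higher affinity, *Nr3c2*, so that in cells without the inactivating enzyme *Hsd11b2* the mineralocorticoid receptor is occupied mostly by corticosterone, and only cells that carry the enzyme sense aldosterone. The nucleus of the solitary tract is known for a small group of aldosterone-sensing neurons linked to sodium appetite, and its catecholamine neurons are known targets of glucocorticoids and estrogens.

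The annotation keeps 39461 nuclei in 14 cell types, of which 12539 are neurons in 134 clusters, with 26860073 to 35583732 UMIs from neurons per library. The defining markers of 13 types (none were set for oligodendrocytes/OPC) were highest in their own type apart from *Cspg4* and *Vim*, and choroid plexus cells were too unevenly sampled for a comparison, which leaves 13 types. Of the kept nuclei, 336 carried a barcode that also occurred in another library. *Xist*, the transcript of the inactive X chromosome, stood at 507, 319, 541 and 16.2 CPM in neurons of control replicates 1 and 2 and AgRP-Gq;POMC-Gi replicates 1 and 2, and *Uty*, a gene of the Y chromosome, at 56.9, 82.4, 55.8 and 169.5 CPM, so that the last library stood apart from the others in both. *Xist* had a UMI in 64.6% of neurons of AgRP-Gq;POMC-Gi replicate 1 and 2.17% of replicate 2, and *Uty* in 23.2% and 69.4%. These 2 libraries thus differed in their mix of male and female nuclei. Levels are in CPM, UMIs of a gene per 1000000 UMIs of the same nuclei, and are given in that library order or as mean ± SD (n = 4 libraries).

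In neurons *Nr3c2* was the highest of the 5 receptors and *Esr2* the lowest in CPM, per kb of gene span and per kb of exon. *Nr3c2* reached 326 ± 14.0 CPM, *Pgr* 56.9 ± 3.09 CPM, *Nr3c1* 41.3 ± 2.66 CPM, *Esr1* 30.6 ± 3.09 CPM and *Esr2* 1.66 ± 0.340 CPM. Nuclear RNA is rich in introns, and whether reads in introns were counted is not given in the sources used here, so levels are also given per length. UMIs of the 3′ chemistry used need not scale with length, so only an order that holds in every measure is read. Per kb of gene span the neuronal levels were 0.943 CPM for *Nr3c2*, 0.828 for *Pgr*, 0.379 for *Nr3c1*, 0.0776 for *Esr1* and 0.0292 for *Esr2*. Per kb of annotated exon they were 50.4, 6.66, 5.38, 2.24 and 0.492 CPM in the same order. *Pgr* was thus close to *Nr3c2* per kb of span and far below it per kb of exon, a difference made by the divisor. *Nr3c2* (ENSMUSG00000031618, chromosome 8 of GRCm38, 76899442 to 77245012) overlaps *Gm10649* on the other strand, and the other members, *Nr3c1* (ENSMUSG00000024431) included, overlap no annotated gene. *Esr1* (ENSMUSG00000019768) lies on chromosome 10 at 4611593 to 5005614, *Esr2* (ENSMUSG00000021055) on chromosome 12 at 76120419 to 76177259 and *Pgr* (ENSMUSG00000031870) on chromosome 9 at 8899833 to 8968611.

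**Figure D1:**
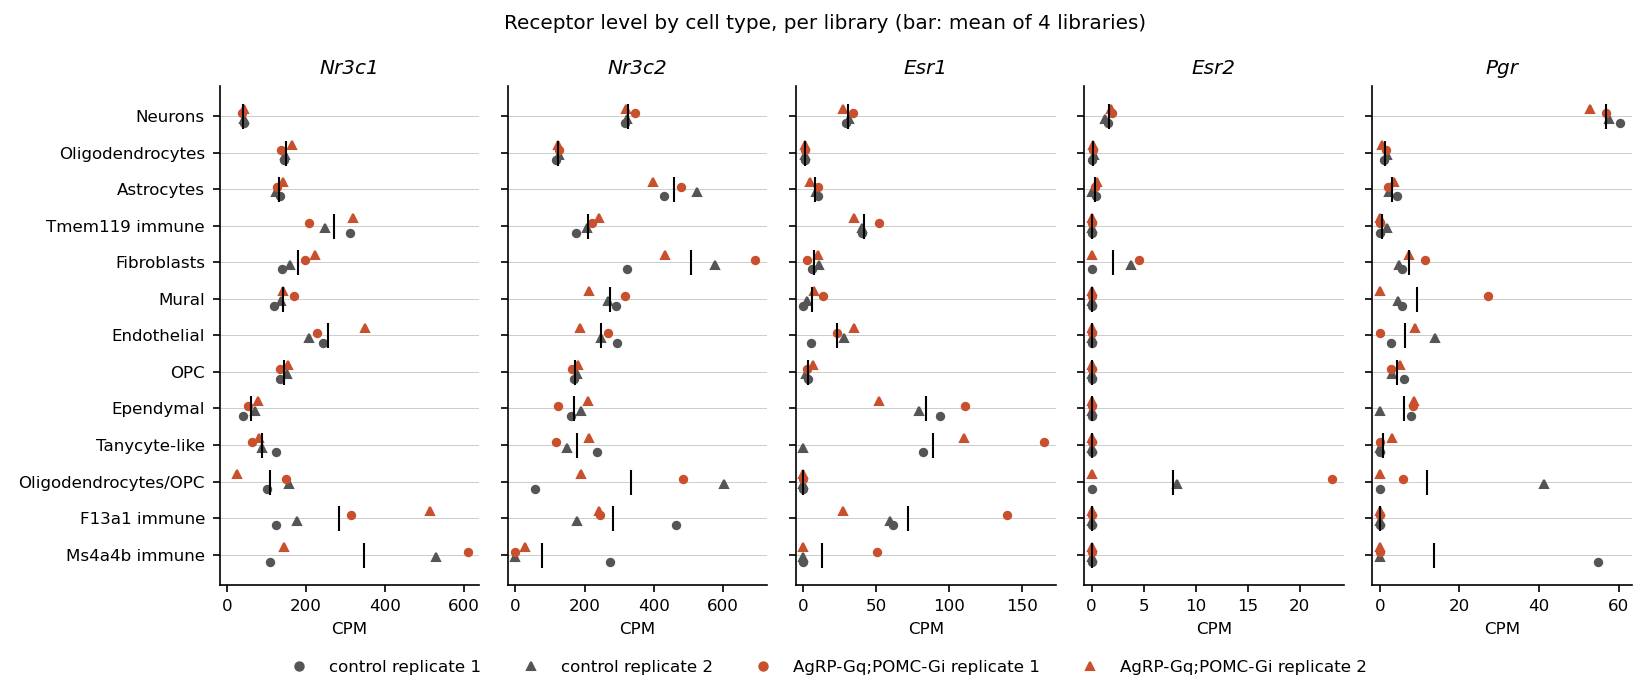
Level of each receptor (CPM, linear axis) in 13 cell types, 1 point per library and a bar at the mean of the 4 libraries. Neurons are lowest of the 13 types for *Nr3c1*, at 41.3 CPM, and highest for *Pgr*, at 56.9 CPM.

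*Nr3c1*, the receptor through which high glucocorticoid levels act, had a lower mean CPM in neurons than in every other cell type. Its neuronal level was 42.7, 42.9, 37.3 and 42.2 CPM, against 143, 147, 138 and 165 CPM in oligodendrocytes and 134, 125, 127 and 143 CPM in astrocytes. No neuronal library reached the lowest of either glial type. Tmem119 immune cells, which carry microglial markers, had 271 ± 53.3 CPM, endothelial cells 257 ± 63.8 CPM and fibroblasts 179 ± 37.2 CPM. The still higher means of Ms4a4b immune cells (348 ± 258 CPM, 61 nuclei) and F13a1 immune cells (282 ± 174 CPM, 88 nuclei) did not differ from microglia or endothelium beyond their spread. Ependymal cells, at 60.1 ± 17.4 CPM, were nearest to neurons, and neurons ranked 12th or 13th in each library. The share of nuclei with a UMI was 26.5% in neurons and 29.3% in oligodendrocytes, although the median neuron had 8704 UMIs and the median oligodendrocyte 2460. Ependymal, mural and tanycyte-like nuclei, also shallower than neurons, held a UMI in 15.3, 17.5 and 21.8%, below the neuronal share. With every nucleus thinned to 800 UMIs these shares were 2.91% and 10.3%, and 19.0% in Tmem119 immune cells. Shares limit nuclei with a UMI, not nuclei that express the gene, and their intervals (exact Clopper-Pearson, 95%) cover counting error only.

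Across the 134 neuronal clusters *Nr3c1* had a median level of 36.2 CPM, and the highest of the 120 sampled with 5 or more nuclei per library varied widely between libraries. Cluster 174:Prdm6/Grp had 13.8, 162, 321 and 332 CPM from 39 nuclei (207 ± 151 CPM). Cluster 173:Mecom/Oprk1 had 185, 319, 237 and 26.5 CPM from 40 nuclei, and the serotonergic cluster 167:Tph2/Slc6a4 had 215, 36.0, 256 and 137 CPM from 43 nuclei. In each of these clusters 1 library held only 1 or 2 UMIs of the gene, so their order cannot be read. Cluster 76 was better sampled with 120 nuclei, and *Dbh*, the enzyme that makes noradrenaline, had a UMI in 39.2% of them (30.4 to 48.5%). Its *Nr3c1* level was 156, 55.1, 86.9 and 93.6 CPM, all above the neuronal mean, and 51.7% of its nuclei held a UMI of the receptor (42.4 to 60.9%). Cluster 117:Ebf2/Nmu followed with 95.2 ± 97.8 CPM, of which AgRP-Gq;POMC-Gi replicate 1 held 239 CPM. The level was not concentrated, as 32 of the 134 clusters were needed to hold 50% of the neuronal *Nr3c1* UMIs, and 3 of the 134, clusters 174, 173 and 167, had a mean above that of oligodendrocytes.

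*Nr3c2*, the receptor for aldosterone and for basal glucocorticoid levels, was detected in 78.4% of neurons (77.7 to 79.1%) and in 22.4% of oligodendrocytes. Neurons had 316, 323, 347 and 319 CPM and oligodendrocytes 118, 126, 126 and 122 CPM, without overlap. Fibroblasts (506 ± 162 CPM) and astrocytes (457 ± 55.7 CPM) had higher means than neurons, and every library of astrocytes exceeded every library of neurons. The mean of oligodendrocytes/OPC (334 ± 253 CPM, 123 nuclei) was also higher but did not differ from neurons beyond its spread. Fibroblasts in control replicate 1, at 323 CPM, did not exceed every neuronal library. CPM is a share of the UMIs of a type and not a level per nucleus. A UMI was found in 67.1% of astrocytes and 51.3% of fibroblasts, less often than in neurons. Their median depths were 3375.5 and 2320 UMIs, against 8704 in neurons. Thinned to 800 UMIs, the share of nuclei with a UMI was 28.4% in astrocytes, 26.5% in fibroblasts, 20.5% in neurons and 8.53% in oligodendrocytes.

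*Nr3c2* was present in all 134 neuronal clusters, with a median of 310 CPM and quartiles of 245 and 375 CPM, and as for *Nr3c1*, 32 clusters were needed to hold 50% of its UMIs. Clusters 170, 183 and 179 had means of 628, 570 and 541 CPM but only 3, 2 and 0 nuclei in their smallest library. Among the 120 clusters sampled with 5 or more nuclei per library, the highest mean was that of cluster 76, with 446, 569, 481 and 497 CPM (498 ± 52.0 CPM). It was followed by clusters 135:Zfp804b/Etl4 (477 ± 127 CPM), 42:Mylk/Mctp2 (474 ± 82.6 CPM), 137:Mecom/Col12a1 (468 ± 102 CPM) and 83:Agtr1b/Cntnap5b (462 ± 49.6 CPM). These means did not differ beyond their spread, so that none of the 5 can be set first. Cluster 76 was also among the 5 highest for *Nr3c1*, and it was the only cluster in the highest 5 of both corticosteroid receptors. At the low end clusters 145, 49 and 142 had 83.0, 107 and 125 CPM.

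*Esr1*, the main estrogen receptor of the brain, was low in the neuronal average and high in few clusters. Neurons had 29.2, 31.6, 34.3 and 27.1 CPM, with a UMI in 15.9% of nuclei, against 1.13, 1.01, 0.948 and 1.19 CPM and 0.285% in oligodendrocytes. Outside neurons the gene was highest in cells that line the ventricle and in immune cells. Ependymal cells had 93.7, 79.6, 111 and 52.2 CPM, all above the neuronal libraries, and Tmem119 immune cells 40.3, 40.0, 51.9 and 35.0 CPM, which also did not overlap with neurons. Tanycyte-like cells varied most, at 82.0, 0, 165 and 110 CPM, and F13a1 immune cells (72.0 ± 48.0 CPM) rested on 11 UMIs. Endothelial cells had 5.45, 27.9, 23.3 and 35.0 CPM from 30 UMIs, which overlapped with neurons. Astrocytes were lower, at 10.2, 8.52, 9.86 and 4.31 CPM, and each of their libraries lay above every library of oligodendrocytes. Thinned to 800 UMIs, 6.93% of tanycyte-like, 6.69% of ependymal, 3.20% of Tmem119 immune and 2.23% of neuronal nuclei held a UMI.

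Cluster 95:Tfap2b/Esr1, a GABAergic cluster named in part for this gene, led all neuronal clusters in *Esr1*. It had 356, 293, 346 and 223 CPM (305 ± 61.3 CPM) in 102 nuclei, of which 57.8% held a UMI (47.7 to 67.6%). Each of its libraries lay above every library of the next cluster, 144:Nox4/Kcnmb2, which had 185, 174, 133 and 179 CPM and 56.9% of 58 nuclei with a UMI. Cluster 95 alone held 350 UMIs, 9.14% of all neuronal *Esr1* UMIs, and 18 of 134 clusters held 50%. The third cluster, 97:Gfral/Sctr, had 148, 95.1, 159 and 138 CPM. This glutamatergic cluster carries *Gfral*, the receptor for the nausea-linked hormone GDF15 that marks area postrema neurons, at 316 ± 98.7 CPM. Clusters 102:Necab1/Pde1a (130 ± 31.7 CPM) and 87:Col25a1/Nox4 (123 ± 28.8 CPM), both GABAergic, did not differ from cluster 97 beyond their spread, and 5 of the 134 clusters held no *Esr1* UMI. Cluster 95 ranked 72nd of 120 for *Nr3c2* (292 ± 30.3 CPM), 94th for *Nr3c1* (26.1 ± 9.11 CPM) and 19th for *Pgr* (72.8 ± 17.1 CPM), the last above the upper quartile of 66.1 CPM over clusters. *Esr2* was not detected in it, with 0 of 102 nuclei, and 3 nuclei of 102, the limit used for a count of 0, would be 2.94%.

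*Esr2* was near the limit of detection. Neurons had 1.53, 1.24, 1.97 and 1.90 CPM from 212 UMIs in all, and 1.48% of neurons held a UMI (1.27 to 1.70%), against 0.0297% of oligodendrocytes. No UMI was found in 8 of the 14 cell types, and the higher means of oligodendrocytes/OPC (7.84 CPM) and fibroblasts (2.08 CPM) came from 5 and 6 UMIs. Within neurons the UMIs were unevenly spread. Cluster 107, a glutamatergic cluster, had 7.96, 5.92, 36.6 and 27.3 CPM from 2, 2, 12 and 10 UMIs. A UMI was found in 19 of its 90 nuclei (21.1%, 13.2 to 31.0%), and it held 12.3% of the neuronal *Esr2* UMIs, more than any other cluster. Cluster 43:Tafa2/Pde1a had 6.36, 8.62, 10.5 and 15.8 CPM. The other high means, those of clusters 184:Calcr/Shox2, 97:Gfral/Sctr and 172:Bnc2/Ebf3, rested on 3 to 6 UMIs each. All 5 clusters were glutamatergic, and 65 of the 134 neuronal clusters held no UMI.

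*Pgr*, whose transcription estrogen raises in reproductive neurons, was the only receptor highest in neurons. They had 60.3, 57.6, 56.9 and 52.8 CPM, with a UMI in 35.2% of nuclei, against 1.13, 1.76, 1.47 and 0.647 CPM and 0.339% in oligodendrocytes. The next mean, 13.7 CPM in Ms4a4b immune cells, rested on 1 UMI. Thinned to 800 UMIs, 3.77% of neurons and 0.137% of oligodendrocytes held a UMI. *Pgr* was spread as evenly over clusters as *Nr3c1*, with 31 of 134 clusters holding 50% of its UMIs, a median of 52.5 CPM, and a mean above that of oligodendrocytes in 133 clusters. Cluster 135:Zfp804b/Etl4 had the highest mean, with 138, 116, 128 and 59.9 CPM, and 61.3% of its 62 nuclei held a UMI. Clusters 163:Adamts18/Col25a1 (104 ± 56.0 CPM), 99 (90.8 ± 8.96 CPM), 162:Chrdl1/Kcnh8 (90.5 ± 45.6 CPM) and 150:Nr5a2/Zfp804b (88.3 ± 32.6 CPM) did not differ from it beyond their spread. Cluster 135 was also in the highest 5 for *Nr3c2*.

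**Figure D2:**
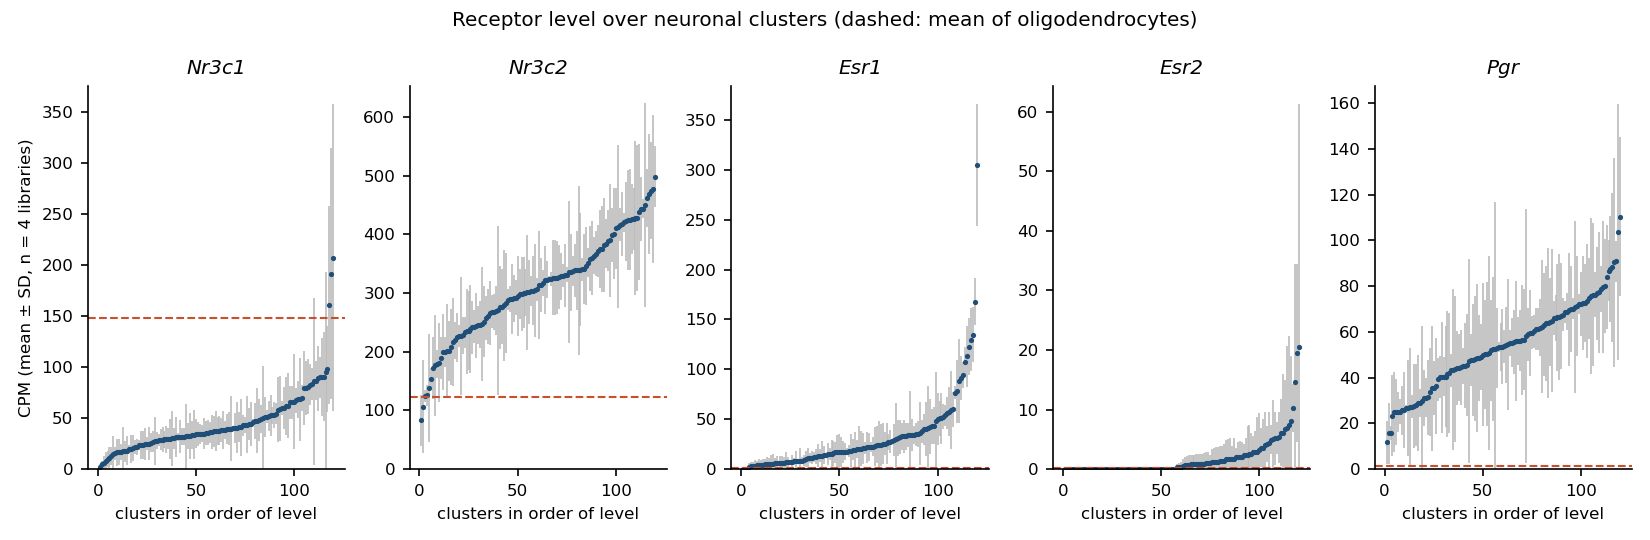
Mean level of each receptor (CPM, linear axis from 0, bars ± SD over 4 libraries) in the 120 neuronal clusters that had 5 or more nuclei per library, in order of level; the dashed line is the mean of oligodendrocytes. *Nr3c2* and *Pgr* lie above that line in nearly all clusters, most clusters lie below it for *Nr3c1*, and *Esr1* rises to 305 CPM in 1 cluster.

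The estrogen receptors differed in the transmitter class of the neurons that carried them. Clusters were called glutamatergic where *Slc17a6*, a vesicular glutamate transporter, was at least 4-fold above *Slc32a1*, the vesicular GABA transporter, and GABAergic for the reverse. This gave 69 clusters with 6201 nuclei and 46 clusters with 4933 nuclei. Glycinergic neurons were not set apart, so the GABAergic class may hold them. *Esr1* had 20.0, 22.8, 26.2 and 21.0 CPM in glutamatergic and 42.8, 45.1, 46.8 and 35.8 CPM in GABAergic neurons, 1.89-fold more in the latter, and all 4 libraries showed this order. *Esr2* had the opposite order, with 2.19, 1.92, 3.13 and 3.11 CPM in glutamatergic and 0.823, 0.480, 0.753 and 0.426 CPM in GABAergic neurons, without overlap and 4.17-fold apart. *Nr3c1* was also higher in glutamatergic neurons, at 50.3, 51.3, 43.7 and 51.6 CPM against 30.7, 34.3, 30.1 and 32.4 CPM, 1.55-fold and again without overlap. *Nr3c2* (337 ± 12.1 against 313 ± 12.6 CPM) and *Pgr* (55.0 ± 3.46 against 60.2 ± 3.10 CPM) differed little, although each kept its order in all 4 libraries. Cluster 95 was the highest *Esr1* cluster among the GABAergic ones, whose median was 32.3 CPM, against 14.9 CPM over the glutamatergic ones. These levels are a description, with no test, because the clusters were built from expression of the same nuclei.

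**Figure D3:**
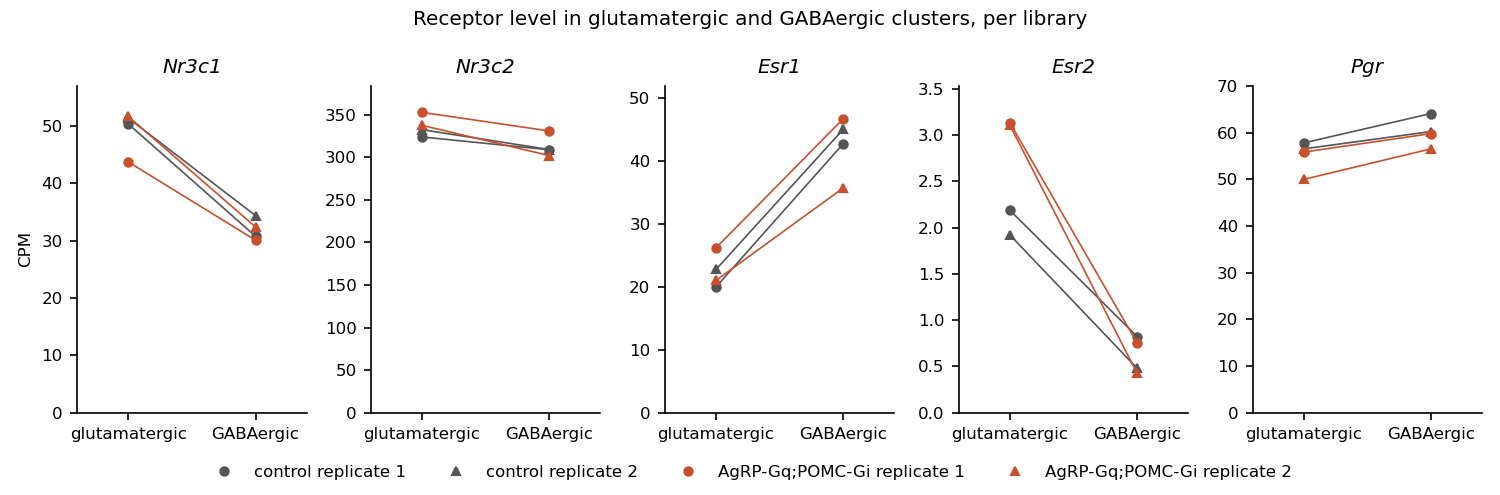
Level of each receptor (CPM, axes from 0) in glutamatergic and GABAergic clusters, 1 line per library. All 4 lines rise towards GABAergic neurons for *Esr1*, 1.89-fold between the means, and fall for *Nr3c1* and *Esr2*.

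Receptors were found in the same nuclei 0.984 to 1.26 times as often as their shares within each cluster and library predict. UMIs of both *Esr1* and *Pgr* were present in 813 neurons, where 740 were expected, and 40.9% of the neurons with *Esr1* also held *Pgr*. In cluster 95 both were found in 32 of 102 nuclei, with *Esr1* in 59 and *Pgr* in 52. The ratio of observed to expected nuclei was 1.19 for *Nr3c1* with *Esr1*, 1.11 for *Nr3c1* with *Pgr*, 1.10 for *Esr1* with *Pgr* and between 1.04 and 1.06 for the pairs with *Nr3c2*. Deeper nuclei show more of every gene, and once each neuron was thinned to 2000 UMIs the first of these ratios were 0.868, 0.976 and 0.799. No excess of shared nuclei can therefore be read from the unthinned values of these pairs. The largest ratio was that of *Nr3c1* with *Esr2*, found together in 72 neurons where 57.1 were expected (1.26), followed by that of *Esr2* with *Pgr* (1.17, 80 neurons). After thinning these 2 ratios were 1.46 and 1.10 but rested on 4 and 3 neurons, too few to read.

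Across the 134 neuronal clusters the 5 receptors varied largely on their own. Pearson's r between their levels, log2(CPM + 1), ran from -0.19 for *Nr3c2* and *Esr1* to 0.28 for *Nr3c1* and *Esr2*, over points that share libraries and depth. The genes most like each receptor over clusters were *Gm37229*, *Maml3* and *As3mt* for *Nr3c1* (r of 0.54, 0.49 and 0.49) and *Gm10649*, *Vwa5b2* and *Hlcs* for *Nr3c2* (0.71, 0.56 and 0.55), of which *Gm10649* overlaps *Nr3c2*. They were *Atp6ap2*, *Bbs9* and *Minar2* for *Esr1* (0.50, 0.50 and 0.47), *Reln*, *Echdc2* and *Prkcz* for *Esr2* (0.48, 0.41 and 0.40) and *Ankrd55*, *Pakap* and *Fggy* for *Pgr* (0.72, 0.70 and 0.69). With 1 library left out, 0 to 3 of the 3 names stayed, so they are given as a description only. The level pattern of control libraries correlated with that of AgRP-Gq;POMC-Gi libraries at r of 0.69 for *Esr1*, 0.50 for *Nr3c1*, 0.43 for *Nr3c2*, 0.42 for *Pgr* and 0.29 for *Esr2*, over 133 clusters that are not independent.

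No change of the receptor genes between the groups was detected in neurons as a whole. In edgeR's quasi-likelihood test over 12115 genes, 0 of the 4 receptors tested passed an adjusted p (Benjamini-Hochberg) of 0.05, beside 0.00% of all genes, and 0 passed an unadjusted p of 0.05, beside 5.51% of all genes, and DESeq2 also called 0 of them. *Nr3c1* differed by -0.05 on the log2 scale, AgRP-Gq;POMC-Gi minus control (SE 0.07, 95% interval -0.23 to 0.13, adjusted p = 0.895), and *Nr3c2* by 0.12 (SE 0.10, -0.12 to 0.36, adjusted p = 0.826). *Esr1* differed by 0.08 (SE 0.15, -0.27 to 0.43, adjusted p = 0.916) and *Pgr* by -0.04 (SE 0.09, -0.26 to 0.17, adjusted p = 0.927). The libraries of the groups did not overlap in CPM for *Nr3c1* and *Pgr*, both lower in AgRP-Gq;POMC-Gi neurons, which was also so in 1 direction or the other for 38.1% of all genes. *Esr2*, below the filter of a UMI in 5% of neurons, gave 0.55 without it (SE 0.23, interval 0.01 to 1.09, unadjusted p = 0.0469, adjusted p = 0.867).

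Whether *Nr3c2* and *Esr1* were called depended on which AgRP-Gq;POMC-Gi libraries were fitted. Without AgRP-Gq;POMC-Gi replicate 2, *Nr3c2* was higher by 0.23 (SE 0.05, adjusted p = 0.0299) and *Esr1* by 0.29 (SE 0.08, adjusted p = 0.0444), both past the threshold in edgeR. The AgRP-Gq;POMC-Gi arm is then a single library, assumed to vary like the controls, and 16.6% of all genes were called in that fit, against 0.00% with all 4 libraries. Without AgRP-Gq;POMC-Gi replicate 1 the same differences were 0.0028 and -0.16, neither called (0.239% of all genes), and 0.0248% of all genes were called without control replicate 1. The levels above show the same: replicate 1 had the highest neuronal *Nr3c2* and *Esr1* of the 4 libraries and replicate 2 the lowest *Esr1*. The part of sex or of other differences between these libraries was not tested.

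**Figure D4:**
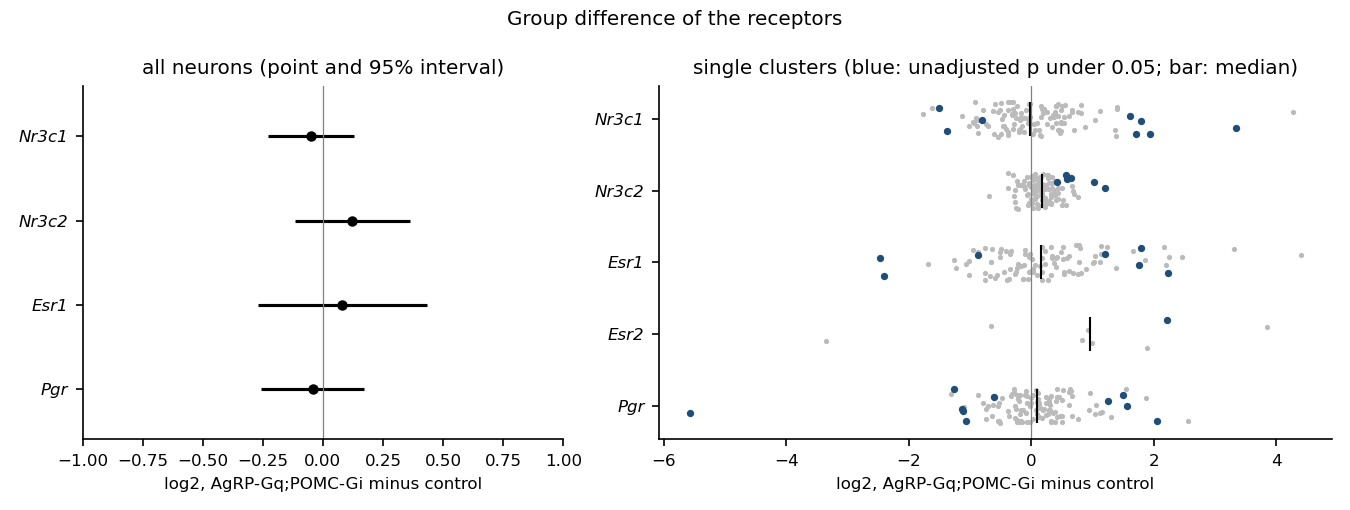
Group difference of the receptors, log2 of AgRP-Gq;POMC-Gi minus control. Left, all neurons with 95% intervals for the 4 receptors that passed the filter, all of which include 0; right, 1 point per neuronal cluster, blue where the unadjusted p was under 0.05, with a bar at the median over clusters, 0.17 for *Nr3c2*.

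In the other cell types 27 pairs of type and receptor could be tested in 12 types, and 0 passed the adjusted threshold in edgeR (lowest adjusted p = 0.707), beside 0.102% of all genes and types. An unadjusted p under 0.05 was reached by 2 pairs, beside 5.71% of all genes and types. *Nr3c1* was 123, 178, 315 and 513 CPM in F13a1 immune cells (log2 1.37, 95% interval 0.21 to 2.52, unadjusted p = 0.0207), from 44 UMIs in all. *Esr1* in tanycyte-like cells, with a log2 difference of 1.80 (interval 0.43 to 3.16, unadjusted p = 0.0119), was called when control replicate 1 was left out (adjusted p = 0.00125, beside 0.847% of the genes of these cells). The control arm is then only replicate 2, which held 0 UMIs of the gene. The large glial classes bound the receptors more tightly, with *Nr3c1* at 0.11 in oligodendrocytes (interval -0.09 to 0.31) and 0.10 in astrocytes (-0.14 to 0.34), and *Nr3c2* at 0.08 (-0.17 to 0.33) and -0.07 (-0.45 to 0.32).

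In single neuronal clusters 467 pairs of cluster and receptor were tested and 0 were called, beside 0.0385% of all pairs of cluster and gene. At an unadjusted p under 0.05 there were 32 pairs (6.85%, 20 higher and 12 lower), beside 4.52% of all pairs, and DESeq2 gave 6 (2 higher and 4 lower). Without TMM factors 14 were higher and 16 lower, and with filterByExpr 8 and 8. With no filter on genes 23 were higher and 12 lower, and with a replicate block 21 and 12. *Nr3c1* in cluster 174:Prdm6/Grp came nearest, with a log2 difference of 1.71 (SE 0.43, unadjusted p = 7.8e-05, adjusted p = 0.126) and a single UMI in control replicate 1. Without control replicate 2 it was called at 4.65 (adjusted p = 0.000623, beside 0.0314% of the genes of that cluster), against that single UMI. Without AgRP-Gq;POMC-Gi replicate 2, *Nr3c1* in cluster 90:Pou4f1/Klhl1 (-3.03, adjusted p = 0.0279) and *Nr3c2* in cluster 39 (0.63, adjusted p = 0.0314) were called, beside 0.304% and 0.900% of the genes of these clusters and with 1 library in the AgRP-Gq;POMC-Gi arm. *Esr2* in cluster 107, with the values given above, had a log2 difference of 2.21 (SE 0.68, unadjusted p = 0.00261, adjusted p = 0.805). Both AgRP-Gq;POMC-Gi libraries lay above both control libraries, which was also so for 13% (264274 of 2028460) of all pairs of cluster and gene with a UMI there. *Esr1* in its leading cluster 95 differed by -0.10 (SE 0.29, interval -0.70 to 0.50, adjusted p = 0.990), and by -0.595 to 0.25 with a library left out.

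The difference of *Nr3c2* was above 0 in 94 of 120 clusters with a median of 0.17 on the log2 scale, while the median over clusters of the median of all genes was 0.0075. *Nr3c1* was above 0 in 56 of 118 clusters (median -0.03), *Pgr* in 65 of 119 (median 0.09), *Esr1* in 57 of 102 (median 0.15) and *Esr2* in 6 of 8 (median 0.96). Without TMM factors *Nr3c2* was above 0 in 76 clusters with a median of 0.096, where that of all genes also moved, to -0.0513. Without AgRP-Gq;POMC-Gi replicate 1 it was above 0 in 59 clusters with a median of -0.0043. The clusters share their libraries and are not replicates, and no test was made over them.

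The group differences of the receptors were not shown to differ between cell classes. In an edgeR interaction test none of the 4 receptors tested passed the adjusted threshold for glutamatergic minus GABAergic neurons (0.00% of all genes), for neurons minus astrocytes (0.0631%) or for neurons minus oligodendrocytes (0.289%). The lowest unadjusted p was that of *Esr1*, with a difference of group effects of 0.24 between glutamatergic and GABAergic neurons (SE 0.10, interval 0.01 to 0.46, unadjusted p = 0.0391, adjusted p = 0.990), where 4.86% of all genes had an unadjusted p under 0.05. The lowest adjusted p was that of *Nr3c1*, with -0.16 between neurons and oligodendrocytes (SE 0.08, interval -0.35 to 0.03, adjusted p = 0.596).

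The genes around the receptors were taken from 7 lists. With all 4 libraries and no replicate block, edgeR called 0 genes of any list in neurons among those that passed the filter. Of the membrane receptors for steroids 5 of 8 were tested (1 higher, 4 lower), with a median log2 difference of -0.11 beside -0.00029 for all genes, and of the coregulators 15 of 15 were (6 higher, 9 lower, median -0.04). The estrogen- and progesterone-regulated list had 8 of 10 tested (3 higher, 5 lower, median -0.04), with *Gal*, the neuropeptide galanin, at 5.96, 11.3, 10.5 and 19.5 CPM. *Gal* differed by 0.85 (SE 0.34, unadjusted p = 0.0398, adjusted p = 0.81 in edgeR), and control replicate 2 exceeded AgRP-Gq;POMC-Gi replicate 1. With the replicate number as a block 1 of the 8 genes of this list was called, beside 1.39% of all genes.

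All 13 chaperones that hold steroid receptors ready for ligand had a log2 difference below 0, with a median of -0.26, and the value of 1 library decided this. *Hsp90aa1*, which encodes the inducible HSP90, had 222, 234, 131 and 211 CPM, and *Hspa8* 192, 212, 109 and 192 CPM. AgRP-Gq;POMC-Gi replicate 1 was lowest and replicate 2 close to the controls. With the replicate number as a block all 13 stayed lower, with a median of -0.30, and 4 were called, beside 1.39% of all genes. Without AgRP-Gq;POMC-Gi replicate 1 the list had 8 higher and 5 lower with a median of 0.0073, and without its replicate 2 it had 13 lower with a median of -0.65 and 9 called, where 16.6% of all genes were called. *Fkbp5*, a chaperone that glucocorticoids induce, did not follow this order, with 43.3, 36.8, 27.4 and 27.0 CPM (-0.50, SE 0.11, adjusted p = 0.81 in edgeR). Its groups did not overlap, which was so in 1 direction or the other for 38.1% of all genes. Of the glucocorticoid-induced list, 11 of 16 genes were tested, 2 higher and 9 lower, with a median of -0.35 beside -0.00029 for all genes. Of these, 7 had an unadjusted p under 0.05 in edgeR, beside 5.51% of all genes. The lists were chosen with earlier results of these data known, so this contrast is a description only. *Nfkbia*, an inhibitor of NF-κB, had the lowest value, -0.65 (SE 0.14), and the clock gene *Per1* the highest, 0.44 (SE 0.15). With the replicate number as a block 5 of these 11 genes, which share *Fkbp5* with the chaperones, were called, beside 1.39% of all genes. Leaving out control replicate 2 gave 1 call, beside 0.140% of all genes, and leaving out AgRP-Gq;POMC-Gi replicate 2 gave 4, beside 16.6%. The levels of *Nr3c1* and *Nr3c2* themselves were not called in any of these fits except *Nr3c2* in the last.

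Of the steroid-converting enzymes 7 of 22 were tested (2 higher, 5 lower, median -0.115), from *H6pd*, which supplies the cofactor for regenerating corticosterone, at -0.25 (SE 0.13) to *Hsd17b12* at 0.21 (SE 0.07). Of the mineralocorticoid and sodium transport list 5 of 9 were tested (2 higher, 3 lower, median -0.07), with *Tsc22d3*, a gene that corticosteroids induce, lowest at -0.58 (SE 0.15). With the replicate number as a block 1 of these 5 was called, beside 1.39% of all genes. Both lists hold *Hsd11b2*, the enzyme that inactivates corticosterone and so leaves *Nr3c2* free for aldosterone. It was higher in AgRP-Gq;POMC-Gi neurons. Its neuronal level was 0.596 and 0.401 CPM in control (16 and 11 UMIs) against 8.21 and 8.87 CPM in AgRP-Gq;POMC-Gi (292 and 313 UMIs). The groups lay far apart, with little spread within each. The gene has a UMI in under 5% of neurons and so fell below the filter. Without the filter the log2 difference was 4.15 (SE 0.22, 95% interval 3.64 to 4.67, 17.8-fold, adjusted p = 0.00327 in edgeR), and *Hsd11b2* was the 1 gene called of 27523 (0.00363%), with 1264 genes at an unadjusted p under 0.05. DESeq2 gave 4.16 (adjusted p = 6.8e-24) and called 12 genes. The size was stable at 3.90 to 4.46 with each library left out, but the call was not. The adjusted p was 0.764 without AgRP-Gq;POMC-Gi replicate 1, 0.203 without replicate 2 and 0.199 without TMM factors.

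The higher level of *Hsd11b2* was not that of a single neuron type. A UMI was found in 26 of 5206 control neurons (0.499%) and in 561 of 7333 AgRP-Gq;POMC-Gi neurons (7.65%), at median depths of 8252 to 9624 UMIs per neuron and library. These neurons came from 23 of 134 clusters in control and 124 of 134 in AgRP-Gq;POMC-Gi, and no cluster held more than 7.41% and 2.98% of the UMIs. Of 120 clusters 116 were higher, 3 equal and 1 lower in AgRP-Gq;POMC-Gi, and in 74 of them both AgRP-Gq;POMC-Gi libraries lay above both control libraries, beside 13% (264274 of 2028460) of all pairs of cluster and gene with a UMI there. No neuron held more than 3 UMIs. Of the neurons with *Hsd11b2* in AgRP-Gq;POMC-Gi libraries, 477 (85.0%) also held a UMI of *Nr3c2*, and in control 24 of 26 (92.3%). *Nr3c2* was detected in 78.4% of the neurons of either group, and these shares were not thinned to equal depth. The known group of aldosterone-sensing neurons could not be placed in a cluster from *Hsd11b2*.

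*Hsd11b2* was also higher in oligodendrocytes and astrocytes. Oligodendrocytes had 0.199 and 0.335 CPM in control against 3.27 and 4.63 CPM in AgRP-Gq;POMC-Gi, with a UMI in 0.0754% and 0.956% of nuclei at a median depth of 2460 UMIs. Without the filter the difference was 3.90 (SE 0.47, adjusted p = 1.06e-13 in edgeR, beside 1.47% of all genes called). Astrocytes had 0.866 and 0.752 against 5.97 and 3.04 CPM (2.46, SE 0.57, adjusted p = 0.00307, beside 1.32% of all genes). The call in astrocytes ended without control replicate 1 (2.57, adjusted p = 0.082) and control replicate 2 (2.35, adjusted p = 0.0988), at about the same size, and without AgRP-Gq;POMC-Gi replicate 1 (1.82, adjusted p = 0.442), where the fold was 3.53 in place of 5.49. DESeq2 gave no adjusted p in either glial type. Endothelial cells, fibroblasts, tanycyte-like cells and Tmem119 immune cells held 0 UMIs in control and 6, 8, 4 and 4 in AgRP-Gq;POMC-Gi. Counts in OPC (1 against 6) and choroid plexus cells (1 against 3) overlapped between the groups, mural cells, F13a1 immune cells and oligodendrocytes/OPC held 1 UMI each, and ependymal cells and Ms4a4b immune cells held 0. Neurons made up 25.4, 27.2, 38.0 and 36.5% of the nuclei of the 4 libraries, more in both AgRP-Gq;POMC-Gi libraries, and the part of free RNA from neurons in the glial values was not tested.

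*Hsd11b2* (ENSMUSG00000031891) lies on chromosome 8 of GRCm38 at 105518755 to 105523988, on the plus strand, 42.7 kb from *Agrp* (ENSMUSG00000005705), the gene that carries the IRES-Cre allele. That allele was present in AgRP-Gq;POMC-Gi mice only, so that an effect of the allele on its surroundings, of the other transgenes and of the manipulation itself cannot be told apart. The 6 protein-coding neighbours within 100 kb were examined after these values were seen. *Atp6v0d1*, a subunit of the vacuolar proton pump whose annotated end lies 0.477 kb from that of *Hsd11b2* on the other strand, had 64.6, 66.8, 92.7 and 90.3 CPM in neurons. Its groups did not overlap, which was so in 1 direction or the other for 38.1% of all genes. Its difference was 0.55 (SE 0.08, adjusted p = 0.637 in edgeR and 0.0027 in DESeq2), and 0.47 in oligodendrocytes (SE 0.13, adjusted p = 0.0185 in edgeR and 0.115 in DESeq2). In neurons it was called once replicate number was a block (adjusted p = 1.34e-05, beside 1.02% of all genes). The call in oligodendrocytes was lost without control replicate 1 (adjusted p = 0.994), without control replicate 2 (0.900) and without TMM factors (0.147), at differences of 0.44, 0.50 and 0.43. *Agrp* itself had 86.0, 90.9, 83.6 and 91.7 CPM in neurons (0.05, SE 0.07), with an annotated span that contains *Ripor1* on the other strand. A UMI assigned to it was found in 51.5% of control neurons and 18.3% of control astrocytes. Whether these UMIs come from the transcript that encodes the neuropeptide was not tested. *Zdhhc1* (0.09), *Ripor1* (0.03), *Tppp3* (-0.27) and *Lrrc36* (0.52) were not called in neurons. *Lrrc36*, at 1.19, 0.766, 1.405 and 1.28 CPM, did not overlap between the groups either. For comparison, *Nr3c2*, the receptor whose ligand this enzyme selects, differed by 0.12 in the same neurons.

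**Figure D5:**
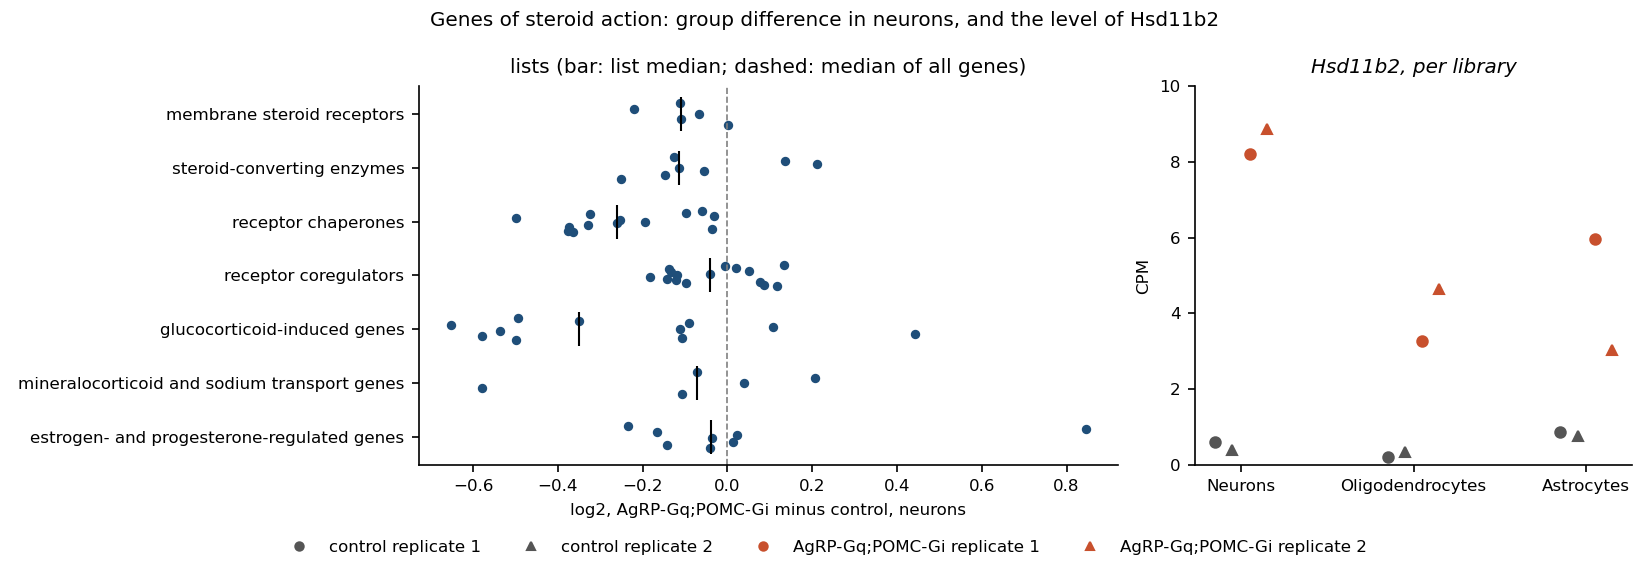
Left, log2 difference in neurons, AgRP-Gq;POMC-Gi minus control, of the genes of 7 lists that passed the filter, with a bar at each list's median and a dashed line at the median of all genes. Right, *Hsd11b2* (CPM, axis from 0) per library in neurons, oligodendrocytes and astrocytes; the AgRP-Gq;POMC-Gi libraries lie at 3.04 to 8.87 CPM and the control libraries at or below 0.866 CPM.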

How the data were processed

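The authors prepared libraries with the 10x Genomics 3′ chemistry, counted UMIs with Cell Ranger 7.0.0 on GRCm38 (their processing notes also name Seurat 4.3.0) and deposited raw UMI counts per gene and nucleus with a table of kept nuclei, clusters and cell types, which was used as given. Their filter asked for at least 800 UMIs per nucleus and was followed by doublet detection. UMI totals computed from the counts equalled the deposited totals in 44303 of 44303 barcodes. The members and gene lists were chosen with earlier results of these data known. UMIs were summed per library and cell type or cluster, and CPM is the share of all UMIs of the same nuclei times 1000000. Groups were compared with edgeR 4.0.16 (quasi-likelihood, TMM, R 4.3.3) for genes detected in 5% or more of the nuclei, in units with 5 or more nuclei per library. Alternatives were no TMM factors, DESeq2 1.42.0, no filter, filterByExpr, a replicate block, thinning, at least 10 nuclei per library and each library left out. Those for *Hsd11b2* were added after its values were seen. For edgeR the SE is the log2 difference over the root of F. Genes named are the members, their 5 highest clusters, cluster 95, clusters in which a member was called, the 3 genes most alike by r among genes with at least 20 CPM in 1 cluster and a UMI in 1% of neurons, and list genes that were called or lowest and highest; *Hsp90aa1*, *Hspa8*, *Fkbp5* and the neighbours of *Hsd11b2* were named after their values were seen. Thinning to 2000 UMIs left 12373 neurons. Gene positions were read from GENCODE M21, which is on GRCm38. The fits were tested on simulated data drawn from these libraries. Other tools were Python 3.11.15, numpy 2.4.6, pandas 2.3.3, scipy 1.17.1 and matplotlib 3.10.9. An eighth list and some cluster names are not reported here. The mixed model of the study (nebula) was not used here.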

Additional observations from a re-analysis of the deposited data

How the results depend on the processing

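With 2 libraries per group, 1 library decided several results. The number of receptors called in neurons ranged from 0 to 2 with each library left out (2 without AgRP-Gq;POMC-Gi replicate 2, where 16.6% of all genes were called, against 0.0248 to 0.239% without the others), that of pairs called in cell types from 0 to 1 and in clusters from 0 to 2, against 0 in each. Pairs of cluster and receptor at an unadjusted p under 0.05 in edgeR numbered 32 of 467 (6.85%), beside 4.52% of all pairs of cluster and gene. DESeq2 gave 6 of 467 (1.28%), filterByExpr 16 of 275 (5.82%) and at least 10 nuclei per library 21 of 300, in 77 clusters. For these alternatives the share over all genes was not taken. Some values turned in sign with a library left out. *Esr1* in neurons ranged from -0.16 to 0.29 on the log2 scale, *Pgr* from -0.15 to 0.064, *Esr1* in cluster 95 from -0.595 to 0.25, *Pgrmc1* from -0.12 to 0.11, *Esrrg* from -0.21 to 0.17, *Esrra* from -0.071 to 0.24, *Ppid* from -0.079 to 0.018 and *Ppargc1a* from -0.073 to 0.32, and *Pgrmc1* was -0.053 without TMM factors, which moved the median of all genes to -0.06.

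Among levels, neurons ranked 4 of 13 types for *Nr3c2* (3 to 4 with a library left out, 2 by log-normalized values) and 5 for *Esr1* (4 by log-normalized values). Of the 5 highest clusters, 3 stayed after thinning for *Nr3c1*, *Nr3c2* and *Esr1*, 2 for *Esr2* and 1 for *Pgr*. By log-normalized values 3 stayed for *Nr3c2* and 2 for *Pgr*, and 3 for *Pgr* with pooled UMIs. With a library left out 2 to 5 stayed for *Nr3c2*, 3 to 4 for *Esr2* and 2 to 4 for *Pgr*. The log2 ratio of glutamatergic to GABAergic neurons for *Nr3c1* was 0.63 (0.53 to 0.71 with a library left out, 0.77 at a 10-fold limit), for *Esr1* -0.92 (-1.15 at a 10-fold limit), for *Nr3c2* 0.11 (0.048 to 0.14) and for *Pgr* -0.13 (-0.19 to -0.088). Thinned ratios of shared nuclei were 0.799 for *Esr1* and *Pgr*, 0.868 for *Nr3c1* and *Esr1*, 0.993 for *Nr3c1* and *Nr3c2*, 0.976 for *Nr3c1* and *Pgr* and 1.02 for *Nr3c2* with *Esr1* and with *Pgr*. Of the 3 most alike genes, Spearman's rho kept 1 for *Nr3c1*, 1 for *Nr3c2* and 0 for *Pgr*, and leaving out a library kept 0 to 2 for *Nr3c1*, *Esr2* and *Pgr*, 0 to 3 for *Nr3c2* and 1 to 2 for *Esr1*. The causes were not tested.

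Replicate numbers are shared between the groups, but the labels do not say that they pair the samples, and the deviations of same-numbered libraries correlated at 0.184 over genes. Choroid plexus nuclei numbered 2, 436, 6 and 329 in library order, few in both libraries numbered 1. Fibroblasts numbered 72, 391, 186 and 170, without that order in both groups. Whether same-numbered libraries were handled together was not tested. With the replicate number as a block 0 receptors were called in neurons, with *Nr3c1* at -0.05, *Nr3c2* at 0.12, *Esr1* at 0.07 and *Pgr* at -0.05. *Hsd11b2* in neurons kept its direction in all 7 alternatives and its call in 4.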
